A study of Mus musculus with 230 samples.

Results

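Collagens, laminins and the proteoglycans and glycoproteins that bind them were followed as 64 genes through the reward circuitry of the mouse. They were the protein-coding genes with a collagen chain or laminin chain symbol, together with Fn1, Dcn, Lum, Bgn, Acan, Bcan, Ncan, Vcan, Tnr and Tnc, whose mean reached 0.5 CPM (the count of the gene scaled to the total of its library) in at least 1 region of saline mice at 24 h of withdrawal. Of 65 genes with such symbols, among 43346 genes in the table, 64 reached that level. Col10a1 was the gene left outside, with its highest mean of 0.199 CPM in the basolateral amygdala. The members nearest to the limit were Col9a1 (0.835 CPM in the ventral tegmental area), Col6a6 (0.965 CPM in the nucleus accumbens) and Col13a1 (1.22 CPM in the ventral hippocampus). In all 6 regions 59 members reached 0.5 CPM. The level in those 43 saline libraries chose the members, so the S24 levels are described with no test. The comparisons that have S24 as an arm share those libraries with the choice, and nothing is read from the number of members called in them.

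RNA was sequenced in 230 libraries from 45 mice (C57BL/6J males) whose self-administered solution was cocaine or saline. Tissue came from the ventral tegmental area (VTA), prefrontal cortex (PFC), nucleus accumbens (NAc), dorsal striatum (CPu), ventral hippocampus (vHipp) and basolateral amygdala (BLA). A mouse is named here by the number in its library titles. S24 denotes 8 mice after saline and C24 denotes 8 mice after cocaine, taken at 24 h of withdrawal with no injection; this time was read from the treatment protocol, as the sample labels give only that there was no challenge. The other mice were kept for 30 d and received an injection 1 h before the tissue was taken. Their codes name the self-administered solution first and the injected one second: SS (8 mice), SC (8 mice), CS (6 mice) and CC (7 mice), with S for saline and C for cocaine. A region held 3 to 8 libraries of an arm, and a mouse gave 4 to 6 regions. No age was given. The 24 h and 30 d mice carry separate blocks of numbers, so withdrawal time, the injection and any difference of cohort or age cannot be told apart.

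In the brain most fibrillar collagen (Col1a1, Col1a2, Col3a1, Col5a1) is made by fibroblasts of the meninges and of the vessel wall. Collagen IV (Col4a1 to Col4a6) and the laminins are the networks of the basement membrane that surrounds every vessel and underlies the pia. The space between neurons holds little collagen. Its matrix is hyaluronan bound by the lecticans, aggrecan (Acan), brevican (Bcan), neurocan (Ncan) and versican (Vcan), which tenascin-R (Tnr) crosslinks. Dense sheaths of this material, the perineuronal nets, surround fast-spiking neurons. Several collagens also have neuronal sources, such as the transmembrane chain Col25a1 and the fibril-associated Col19a1.

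By role the members comprised 11 fibrillar collagens, 8 basement membrane collagens, 10 beaded filament, anchoring and network collagens, 10 fibril-associated collagens, 4 membrane-spanning collagens, 11 laminin chains, 5 glycoproteins and small proteoglycans (Fn1, Dcn, Lum, Bgn, Tnc) and 5 members of the perineuronal matrix (the lecticans and Tnr). Several members are neighbours in the genome. The pair Col4a1 and Col4a2 is transcribed in opposite directions from overlapping starts, and so is the pair Col4a4 and Col4a3 from starts set a short stretch apart. The stretches between their starts are shown because the levels of the first pair moved together and those of the second did not to the same degree (below the regional results). Both are from RefSeq on GRCm38.p6 and are written 5′ to 3′ on the plus strand, with chr8:11312805-11312826 (22 bases, 72.7% G or C) for the first and chr1:82586850-82586920 (71 bases, 69.0% G or C) for the second. Capitals mark a GC box.
Col4a1 to Col4a2: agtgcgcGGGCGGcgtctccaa
Col4a4 to Col4a3: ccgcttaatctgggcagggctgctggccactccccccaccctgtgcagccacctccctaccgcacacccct
On both strands the GC box was searched as GGGCGG. The second motif was the CCAAT box, searched by those letters. The TATA box was searched as TATAAA, and none of these overlaps another. The first stretch is the overlap of the genes and lies after both starts. It held 1 GC box, which 4.09% of 32851 windows of the first 22 bases after a gene start also held. The second stretch held none of the 3 motifs. Of the 32851 windows of its length before a gene start, 20.7%, 13.3% and 4.41% held them, in that order.

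Marker sums set most regions apart, less so the BLA. In SS, the summed level of 9 dopamine neuron markers had a median of 4092 CPM in the VTA and at most 91.5 CPM elsewhere. The 9 striatal neuron markers summed to 9594 CPM (CPu) and 6024 CPM (NAc), at most 387 CPM in the PFC, vHipp and VTA, and 2057 CPM in the BLA, where libraries ran from 553 to 3226 CPM, near the lowest of the NAc (3324 CPM). The 8 glutamatergic forebrain markers summed to 7195 CPM (vHipp), 5660 CPM (PFC) and 3520 CPM (BLA), near the 2836 CPM of the CPu, and to 147 CPM in the VTA. Library totals ran from 11866570 to 42135683 counts. Of the 230 libraries, 16 stood apart from their region through choroid plexus, leptomeningeal or blood cell markers, at more than 4 times the median of the region. One of these, the vHipp library of SS mouse m035, had a summed leptomeningeal level of 1234.5 CPM against a median of 180.9 CPM in the region. Another, the vHipp library of S24 mouse m182, was high in choroid plexus markers. Results that rest on them are given with and without them. Across bulk tissue, fewer cells of a type and less RNA per cell cannot be told apart.

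The region with the highest level differed between members. In S24, the members' means were highest in the BLA for 18 members, in the vHipp for 17, in the VTA for 11, in the PFC for 9, in the NAc for 5 and in the CPu for 4. The CPu was the lowest region for 32 members. Without the libraries that stood apart the vHipp was the highest region for 8 members, the VTA for 15 and the BLA for 19, and 12 members changed their highest region. In the single vHipp library of mouse m182, Col8a1, a short-chain network collagen, stood at 79.3 CPM, against a median of 0.938 CPM over the 7 libraries. Col9a3 stood at 159 CPM against 8.71 CPM, and Col8a2 at 74.8 CPM against 2.27 CPM. The highest region was the same in SS as in S24 for 34 members, and in all 5 other arms for 23.

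**Figure D1:**
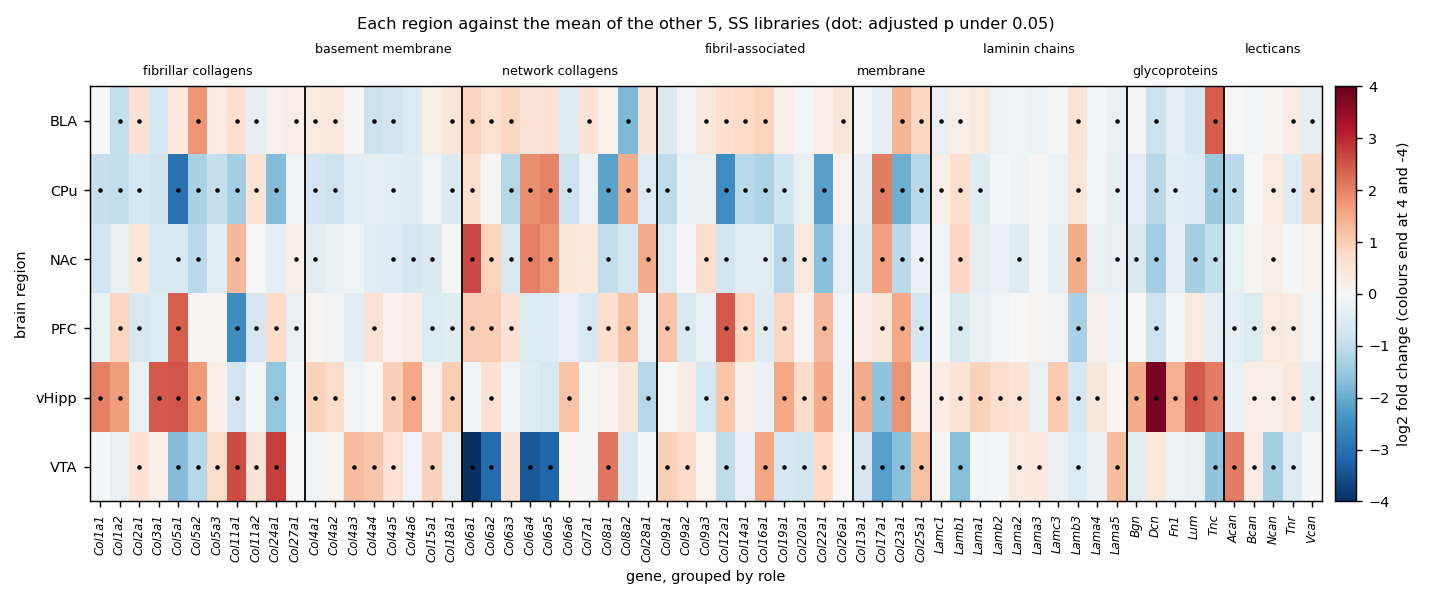
Log2 fold change of 63 of the 64 genes (columns, grouped by role) in each region (rows) against the mean of the other 5 regions, in SS libraries. Red is higher, blue is lower, and a dot marks an adjusted p under 0.05; Dcn in the vHipp (3.79) and Col6a1 in the VTA (-5.04) lie near or beyond the ends of the colour scale.

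The regions were then compared in the SS libraries, which the choice of members did not use, each region against the mean of the other 5. Over 17112 genes, the members called in a region at an adjusted p under 0.05 (edgeR's quasi-likelihood test) stood beside the share of all genes called. In the vHipp 33 of 64 members were higher (51.6%) and 7 were lower (10.9%), against 25.8% and 22% of all genes. In the BLA 23 were higher (35.9%) and 9 lower (14.1%), against 18.3% and 12.1%. The CPu had the reverse pattern, with 11 higher (17.2%) and 32 lower, against 27.9% and 29.3%. The NAc had 14 higher (21.9%) and 20 lower (31.25%), against 22.6% and 21.5% of all genes. The PFC and the VTA were nearer to the background. The PFC had 19 higher and 15 lower, against 22.8% and 19.8%. The VTA had 20 higher and 18 lower, against 32.7% and 35.1%.

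The median log2 fold change of the members was 0.31 in the vHipp, 0.21 in the BLA, -0.32 in the NAc and -0.46 in the CPu. Over all genes it was 0.01, 0.01, -0.006 and -0.001 in that order. In the PFC and the VTA the members' median was -0.07 each, beside -0.007 and -0.04. With the vHipp library of SS mouse m035 left out (the m035 library, the only SS library that stood apart), the vHipp had 30 members higher and 10 lower, all of the 30 being among the 33. The members' median there was then 0.174, and 23.8% of all genes were higher and 21.8% lower. Lama2, Lama4 and Lamc1 lost their call, and Col6a3, Col8a1 and Col9a2 became lower. In the NAc the same removal left 17 members lower, where Col16a1, Col25a1, Col6a3 and Lama5 lost their call and Col1a1 gained one. Leaving out that library changed at most 2 calls in any of the other regions. The remaining libraries of that mouse stayed in these fits. The median fold between a member's highest and lowest region was 3.44 in SS. Col27a1 varied least (1.43-fold) and Col6a1 most (84.3-fold).

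Of the collagen VI chains, Col6a1 differed most between regions and stood highest in the NAc. Col6a1 (ENSMUSG00000001119, chr10:76708792-76726168 on mm10) is the first chain of a beaded filament that anchors cells to the matrix. In SS it ran from 266 to 598 CPM in the NAc (median 394) and from 81.2 to 233 in the PFC, and its BLA median was 147. In the CPu it ran from 93.7 to 162.5 CPM and in the vHipp from 58.8 to 104.7. The VTA libraries lay between 4.47 and 5.86 CPM (median 4.79). Every NAc library was above every library of another region, and every VTA library was below all others. The log2 fold change was 2.64 ± 0.13 (SE) in the NAc (adjusted p 1.2e-19) and -5.04 ± 0.22 in the VTA (adjusted p 6.7e-22). Per kb of exon, Col6a1 was the highest member in the NAc at 94.6 CPM per kb, ahead of Bcan at 72.9, while in the VTA it had 1.12.

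The partner chains differed from Col6a1 in their regional order. Col6a2, which assembles with Col6a1, was higher in the PFC (log2 0.98 ± 0.14), the NAc (0.89 ± 0.15), the BLA (0.60 ± 0.15) and the vHipp (0.57 ± 0.16). It was lower in the VTA (-3.09 ± 0.22). Col6a4 and Col6a5, chains that can replace Col6a3 in the trimer, were higher in both striatal regions. In the NAc Col6a4 ran from 11.3 to 34.5 CPM and Col6a5 from 3.15 to 9.11 CPM. In the VTA they ran from 0.469 to 1.63 and from 0.140 to 0.518 CPM, with no overlap with the NAc. Their log2 fold changes were 2.02 ± 0.20 and 1.79 ± 0.28 in the NAc, 1.86 ± 0.20 and 1.98 ± 0.27 in the CPu, and -3.40 ± 0.33 and -3.18 ± 0.45 in the VTA. Col6a3, in contrast, was lower in the CPu (-1.14 ± 0.26).

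Fibrillar collagens were lowest in the CPu, where 8 of 11 were lower and only Col11a2 was higher. Col5a1, which nucleates collagen fibrils, ran from 0.788 to 2.12 CPM in the CPu. It ran from 21.7 to 49.8 CPM in the PFC and from 18.6 to 83.1 CPM in the vHipp, so that both regions lay wholly above the CPu. The log2 fold change was -2.98 ± 0.28 in the CPu, 2.40 ± 0.18 in the PFC and 2.52 ± 0.18 in the vHipp (2.55 without the m035 library). Col5a2, its partner chain, was high in the BLA at 11.9 to 25.7 CPM (log2 1.76 ± 0.13, adjusted p 8e-14) and in the vHipp at 12.9 to 24.7 CPM (1.69 ± 0.14), with overlapping ranges. In the CPu it ran from 2.33 to 3.99 CPM, and in the PFC it was not called.

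Col11a1, which like Col5a1 belongs to the minor fibrillar collagens that set fibril width, was high in the VTA and the NAc, where Col5a1 was lower (-1.74 ± 0.26 and -0.61 ± 0.23), and low in the PFC, where Col5a1 was higher. In the CPu both were lower (Col11a1 -1.36 ± 0.17). In the VTA it ran from 59.6 to 99.9 CPM (median 70.1), above every library of the other regions, in the NAc from 27.4 to 51.2 and in the PFC from 2.46 to 5.21. Its log2 fold change was 2.62 ± 0.14 in the VTA (adjusted p 1.1e-19), 1.34 ± 0.15 in the NAc and -2.51 ± 0.19 in the PFC. Col24a1, a fibrillar chain known from bone and cortex, had 6.00 to 18.6 CPM in the VTA (log2 2.76 ± 0.24). In the vHipp it lay between 0.144 and 3.53 CPM (-1.55 ± 0.35).

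The interstitial collagens Col1a1, Col1a2 and Col3a1 were higher in the vHipp, by log2 2.02 ± 0.26, 1.68 ± 0.27 and 2.45 ± 0.34. A large part of that size came with 1 library. Col1a1 ran from 4.95 to 54.7 CPM (median 7.25) and Col3a1 from 1.19 to 38.9 CPM (median 2.71), and mouse m035 had the highest value of both. Without it the log2 values were 0.98, 0.39 and 0.79, with adjusted p of 6.5e-05, 0.05 and 0.0079. The calls of Col1a1 and Col3a1 held, and Col1a2 stood at the threshold. In the CPu Col1a1 lay between 2.21 and 2.85 CPM (log2 -0.92 ± 0.31) and Col1a2 was lower too (-0.97 ± 0.32).

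**Figure D2:**
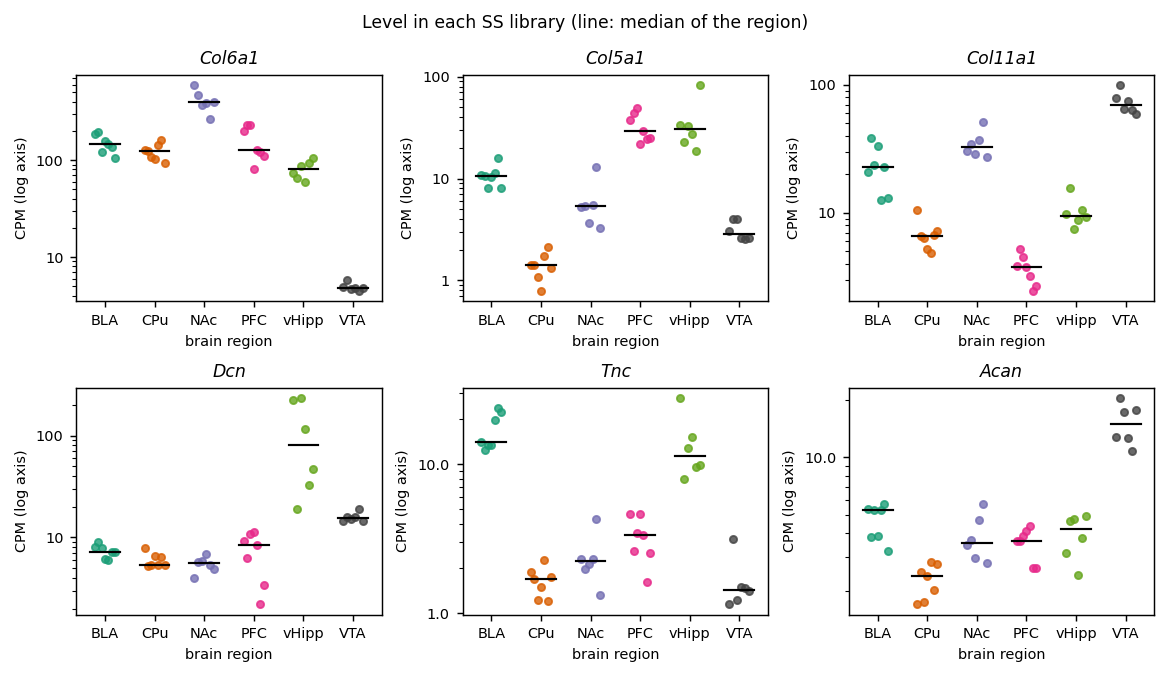
CPM (log axis) of 6 genes in each SS library by region, with a line at the median of the region. Col6a1 in the NAc and Col11a1 and Acan in the VTA lie above all libraries of the other regions, and Dcn and Tnc are high in the vHipp, where the highest Tnc value is mouse m035.

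The small leucine-rich proteoglycans and their glycoprotein partners were high in the vHipp, where all 5 of that role were higher (median log2 2.06). Decorin (Dcn, ENSMUSG00000019929, chr10:97479609-97518143 on mm10) binds collagen fibrils and growth factors. It ran from 18.8 to 233 CPM in the vHipp (median 81.6), from 14.4 to 18.9 in the VTA and from 3.96 to 6.81 in the NAc. No other region overlapped the vHipp except the VTA, whose highest library passed the lowest of the vHipp. The log2 fold change was 3.79 ± 0.22 (adjusted p 9.6e-18) and 3.48 without the m035 library. Lumican (Lum), its neighbour on chromosome 10, ran from 1.71 to 19.8 CPM in the vHipp (log2 2.44 ± 0.26; 1.70 without the m035 library) and from 0.410 to 1.04 CPM in the NAc (-1.34 ± 0.37).

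Biglycan (Bgn) ran from 15.8 to 96.3 CPM in the vHipp, with mouse m035 highest (log2 1.47 ± 0.19; 0.73 without it). Fibronectin (Fn1), the glycoprotein of assembling matrix, ran there from 62.4 to 301 CPM and in the CPu from 30.1 to 56.6 CPM. Its log2 fold change was 1.45 ± 0.16 in the vHipp (1.17 without the m035 library) and -0.44 ± 0.17 in the CPu. Other small leucine-rich proteoglycans, from a list of 8 of which 6 were tested, were higher in the vHipp in 6 of 6, against 25.8% of all genes. Ogn had 3.71 ± 0.30, Fmod 3.23 ± 0.35 and Podn 2.35 ± 0.19. These values include the m035 library, and none without it are given. The summed level of 20 leptomeningeal fibroblast markers ran from 154 to 1234.5 CPM in the vHipp (median 207), from 126 to 150 CPM in the BLA and from 99.5 to 117 CPM in the CPu. No marker of that list was at 0 in the vHipp, and its part in these differences was not tested.

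Tenascin-C, a glycoprotein of glia and developing tissue, was high in both the BLA and the vHipp. It ran from 12.5 to 23.7 CPM in the BLA and from 7.91 to 27.8 CPM in the vHipp, against 1.15 to 3.17 CPM in the VTA. The log2 fold change was 2.44 ± 0.16 in the BLA (adjusted p 5.5e-15), 2.06 ± 0.18 in the vHipp (1.75 without the m035 library) and -1.62 ± 0.24 in the VTA. The BLA and vHipp ranges overlapped and lay wholly above the VTA.

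Basement membrane collagens were higher in the vHipp for 5 of 8 and lower in the CPu and the NAc for 4 of 8 each. Col4a1, the ubiquitous chain of vessel basement membrane, ran from 51.4 to 88.9 CPM in the vHipp and from 19.5 to 27.9 CPM in the CPu. The BLA libraries lay between, at 32.8 to 79.4 CPM, and overlapped the vHipp. Its log2 fold change was 0.92 ± 0.09 in the vHipp, 0.36 ± 0.09 in the BLA and -0.78 ± 0.10 in the CPu, and Col4a2 gave 0.74 ± 0.11, 0.42 ± 0.11 and -0.86 ± 0.12. Col4a3 and Col4a4, chains of specialised basement membranes, were higher in the VTA (1.22 ± 0.19 and 1.12 ± 0.16). The summed level of 16 endothelial markers had medians of 577 CPM in the CPu, 486 CPM in the BLA and 615 CPM in the vHipp. Between the CPu and the BLA this is the reverse of the order of Col4a1.

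Of the laminin chains 7 of 11 were higher in the vHipp and at most 3 in any other region. Lama2, of vessel and glial basement membrane, was higher in the vHipp by 0.52 ± 0.13, Lama4, of endothelial basement membrane, by 0.45 ± 0.17 and Lamc1, the common gamma chain, by 0.30 ± 0.09. Without the m035 library none of these calls held, at 0.28 (adjusted p 0.0506), -0.08 (0.62) and 0.14 (0.173). Lama4 was not called with all libraries outside S24 either (-0.0571). Lamb3, an epithelial laminin chain, was highest in the NAc at 5.98 to 9.92 CPM (1.498 ± 0.13) and lower in the PFC at 1.01 to 1.72 CPM (-1.29 ± 0.15). Lama5 was higher in the VTA, from 28.9 to 41.96 CPM against 9.03 to 21.4 CPM in the vHipp (VTA log2 1.25 ± 0.11). Lamb1 ran from 42.98 to 67.5 CPM in the NAc (0.83 ± 0.09) and from 9.69 to 16.0 CPM in the VTA (-1.70 ± 0.11).

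Collagens with neuronal or junctional roles also split the regions. Col12a1, a fibril-associated chain, ran from 37.2 to 54.8 CPM in the PFC (2.46 ± 0.14) and from 1.70 to 3.74 CPM in the CPu (-2.50 ± 0.21). Col19a1, made by interneurons and needed for some inhibitory synapses, was higher in the vHipp at 18.2 to 29.7 CPM (1.54 ± 0.12) and lower in the NAc at 3.997 to 6.56 CPM (-1.12 ± 0.15). Col25a1 ran from 124 to 215 CPM in the VTA (1.17 ± 0.11) and from 32.5 to 46.2 CPM in the CPu (-1.12 ± 0.12).

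Col23a1, a transmembrane collagen, ran from 14.2 to 51.8 CPM in the vHipp (1.81 ± 0.18) and from 3.47 to 4.196 CPM in the CPu (-1.94 ± 0.23). Col17a1, the hemidesmosomal collagen, was high in both striatal regions, at 1.54 to 2.57 CPM in the CPu (2.07 ± 0.17, adjusted p 1.3e-13) and 0.978 to 2.29 CPM in the NAc (1.65 ± 0.18). It was at 0.111 to 0.227 CPM in the VTA (-2.21 ± 0.28). Its lower level in the vHipp (-1.62 ± 0.26) was not called when all libraries outside S24 were used (-0.03, adjusted p 0.9). Col16a1 ran from 46.6 to 69.4 CPM in the VTA (1.59 ± 0.16) and from 7.65 to 15.4 CPM in the CPu (-1.27 ± 0.19). Col8a1 ran from 4.27 to 5.92 CPM in the VTA (2.12 ± 0.24) and from 0.257 to 0.488 CPM in the CPu (-2.15 ± 0.34). Its partner Col8a2 was lower in the BLA (-1.80 ± 0.59, adjusted p 0.017), a call not made with all libraries outside S24 (-0.70, adjusted p 0.0651). In the NAc the lowest log2 fold changes were those of the fibril-associated Col22a1 (-1.68 ± 0.24) and of Dcn (-1.41 ± 0.32).

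Of the perineuronal matrix Bcan, Ncan and Tnr were abundant per length, with Bcan the highest member in every region but the NAc. Acan and Vcan were not, with regional means of 0.305 to 2.05 and 1.79 to 3.45 CPM per kb. Brevican reached 84.6 CPM per kb in the VTA and 48.4 in the PFC, the highest and lowest of its regional means. Neurocan had 38.2 CPM per kb in the PFC and 14.7 in the VTA, and tenascin-R 23.1 in the vHipp and 12.6 in the CPu. Bcan and Ncan differed in the direction of their VTA level. Bcan ran from 295 to 399 CPM there (0.34 ± 0.07) and from 144.6 to 224 CPM in the PFC (-0.56 ± 0.07). Ncan had a median of 104 CPM in the VTA, where each library was below every library of the PFC (234 to 309 CPM) and the BLA (210 to 252 CPM), with a log2 fold change of -1.33 ± 0.08 (adjusted p 3.8e-18).

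Aggrecan, the lectican most tied to perineuronal nets, was higher in the VTA, at 10.8 to 20.4 CPM against 1.70 to 2.83 CPM in the CPu and 3.25 to 5.69 CPM in the BLA (VTA 2.05 ± 0.12, adjusted p 3.8e-18). It was lower in the CPu (-1.09 ± 0.15). Versican was higher in the CPu, from 29.4 to 57.1 CPM, than in the vHipp, from 18.7 to 30.8 CPM (CPu 0.84 ± 0.09, vHipp -0.43 ± 0.11). Tnr was lower in the CPu and in the VTA (both -0.50 ± 0.11). The CPu library of SS mouse m011 had the lowest Tnr (83.7 CPM, the next being 150), Vcan (29.4, the next 45.2) and Col25a1 (32.5) of its group. The same library had a summed oligodendrocyte marker level of 9541 CPM against 6030 to 7324 CPM in the others, and an astrocyte level of 2341 CPM against 3253 to 3892. The part of these cells was not tested.

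Within a region, levels of some members tracked cell type markers over the libraries of all arms. These 18 relations were taken on log2(CPM + 1), with p from 100000 permutations adjusted over the 18. For Col1a1 against the leptomeningeal list, Pearson's r was 0.395 in the BLA (38 libraries, Spearman's rho 0.533), 0.533 in the CPu (42, 0.562) and 0.726 in the NAc (39, 0.479). It was 0.891 in the PFC (41, 0.896), 0.913 in the vHipp (39, 0.741) and 0.939 in the VTA (31, 0.744), and all 6 passed (largest permutation adjusted p 0.0204 for r and 0.00416 for rho). Without the 2 farthest libraries the r values were 0.615, 0.619, 0.544, 0.878, 0.833 and 0.768.

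Col4a1 followed the endothelial list in the VTA (r 0.614, rho 0.516, permutation adjusted p 0.00045 for r, 0.492 without the 2 farthest libraries). In the CPu (0.458) and the NAc (0.408) the relation fell to 0.113 and 0.145 without 2 libraries and rests on them. It was not detected in the BLA (0.206), PFC (0.152) or vHipp (0.179). Bcan followed the oligodendrocyte precursor list in the BLA (0.666), PFC (0.647) and vHipp (0.772), with 0.559, 0.678 and 0.694 without the 2 farthest libraries. In the NAc r was 0.508 and fell to 0.304 without 2 libraries. Without the libraries that stood apart, rho there was 0.33 (permutation adjusted p 0.0635). Bcan followed the list more loosely in the CPu (0.32, permutation adjusted p 0.0494). Without the libraries that stood apart these CPu values were 0.297 and 0.0741. In the VTA r was 0.349 (permutation adjusted p 0.0655). The arms are mixed in these relations.

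The paired collagen genes differed in how tightly their levels moved together. The ratio of Col4a1 to Col4a2 in CPM, which is not a ratio per length, had regional medians from 0.605 in the VTA to 0.839 in the PFC. Within a region the log2 ratio had an SD of 0.0986 to 0.154, below the SD of either gene in every region, such as 0.379 and 0.355 in the BLA. For Col4a4 to Col4a3, across the other stretch printed above, the SD of the log2 ratio ran from 0.446 in the VTA to 0.941 in the NAc. In the CPu, NAc and PFC it exceeded the SD of either gene, as in the NAc (0.607 and 0.596). Both genes were at low levels there, with SS medians of 0.645 and 0.516 CPM in the NAc, and the part of counting error was not tested. For Col4a6 to Col4a5 the SD of the log2 ratio ran from 0.33 in the PFC to 0.49 in the NAc.

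Col6a2 and Col6a1, 85162 bases apart in the same direction, moved together in the PFC. Their CPM ratio there lay between 0.189 and 0.264 in 41 libraries, with an SD of 0.130 for the log2 ratio against 0.478 and 0.507 for the genes. The ratio was 0.0836 in the NAc and 0.730 in the VTA by median, with an SD of 0.561 in the VTA and 0.749 in the vHipp.

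**Figure D3:**
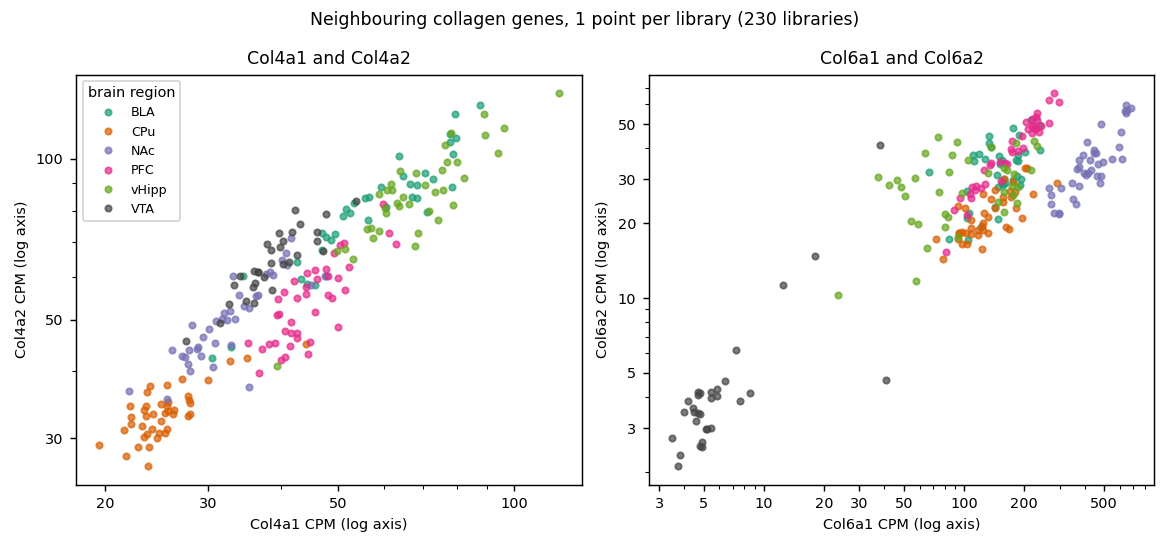
CPM of Col4a2 against Col4a1 and of Col6a2 against Col6a1 (log axes), 1 point for each of the 230 libraries, coloured by region. The Col4 pair lies on a narrow band in every region, while the Col6 pair lies on different bands in the NAc, the PFC and the VTA.

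The first cocaine comparison, C24 against S24, asks what differs a day after the last self-administration. No member was called in any region. Of 382 tests of members, edgeR and DESeq2 called 0, and 32 had an unadjusted p under 0.05 in edgeR (8.38%, against 3.84% of all tests). The background was 0.000983% of 101684 tests called. Over the regions, with 1 mean per mouse in limma, 0 of 64 were called, against 0% of all genes called. At an unadjusted p under 0.05 there were 7 members. The share of all genes at that p is not given beside them, so nothing is read from that count.

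Fn1 was the member nearest to a call, with the smallest p in the CPu, NAc, PFC and VTA and over regions. In the CPu it ran from 22.1 to 67.2 CPM in S24 (median 38.5) and from 45.9 to 127 CPM in C24 (median 55.1). In the NAc it ran from 30.3 to 71.4 CPM (53.5) and from 54.5 to 128 CPM (69.5), in the PFC from 29.4 to 84.97 (50.6) and from 48.1 to 153 (75.8). In the VTA it ran from 48.1 to 84.6 (49.1) and from 60.5 to 297 (73.5). The arms overlapped in each of these regions, with the C24 median higher. The log2 difference was 0.55 ± 0.17 in the CPu, 0.59 ± 0.17 in the NAc, 0.65 ± 0.23 in the PFC and 1.02 ± 0.32 in the VTA, with edgeR adjusted p from 0.608 to 1. The highest VTA library, that of C24 mouse m175, was 1 of those that stood apart.

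In the BLA the medians of Fn1 were 59.7 CPM in S24 and 59.1 CPM in C24. The vHipp medians were 64.9 and 87.4 CPM. The smallest p in the BLA was that of Col3a1 (-0.66 ± 0.27) and in the vHipp that of Col8a1 (-3.69 ± 1.51), whose S24 counts reached 2119 in mouse m182 with a median of 20; without the libraries that stood apart its difference was 0.13. The log2 difference over regions was 0.49 ± 0.15 (unadjusted p 0.0017, adjusted p 0.448 over all genes), and 0.352 ± 0.127 without mouse m203, whose Fn1 was the highest of C24 in the CPu, NAc and vHipp. A voom fit to single libraries, with the mouse as a block, called it (adjusted p 0.00205, and 0.000539 with no block). With no block, the libraries of a mouse count as independent, although the mouse received the treatment. The block sets a single correlation of 0.0398 for all genes. Neither fit thus replaces the mean per mouse. The adjusted p ran from 0.000539 to 0.953 over the alternatives, mouse m203 left out included.

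The remaining cocaine comparisons gave no called member in any region by edgeR or DESeq2. For CS against SS, which compares cocaine with saline history after a saline injection, 35 of 382 tests had an unadjusted p under 0.05 (9.16%, against 4.95% of all), with a background called of 0%. Of these, 26 were in the vHipp, where the count was 13 without the libraries that stood apart. The smallest p there was that of Col11a2, at 21.3 to 49.5 CPM in SS and 12.5 to 19.9 CPM in CS, with no overlap (-0.81 ± 0.21, adjusted p 0.25). For SC against SS, the first injection of cocaine, the count was 30 (7.85%, against 4.2%; 0.00393% called), with Col23a1 in the CPu at the smallest p (0.65 ± 0.19, adjusted p 1). For CC against CS, the return to cocaine, it was 21 (5.5%, against 2.41%; 0% called), with Col9a1 in the vHipp at the smallest p (1.49 ± 0.41, adjusted p 1).

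Over regions limma called 0 of 64 in each of these. The share of 18927 genes called was 0% (CS against SS), 0.1% (SC against SS) and 0% (CC against CS). At an unadjusted p under 0.05 there were 3, 7 and 4 members in that order. No share of all genes at that p stands beside these counts, and nothing is read from them. The smallest p were those of Col11a2 (-0.20 ± 0.07), Col17a1 (0.45 ± 0.19) and Col9a1 (0.44 ± 0.13). These comparisons share SS or CS libraries. In the remaining regions the smallest p belonged to Tnc in the BLA (-0.60 ± 0.19), Col5a1 in the CPu (0.94 ± 0.31), Col2a1 in the NAc (-0.52 ± 0.27), Col12a1 in the PFC (-0.38 ± 0.19) and Bcan in the VTA (-0.19 ± 0.07) for CS against SS. For SC against SS it belonged to Col8a1 in the BLA (1.69 ± 0.56), Col17a1 in the NAc (0.54 ± 0.23), Col9a2 in the PFC (0.34 ± 0.15), Col11a2 in the vHipp (-0.59 ± 0.20) and Col6a6 in the VTA (0.99 ± 0.37). For CC against CS it belonged to Col5a3 in the BLA (-0.61 ± 0.23), Col11a1 in the CPu (-0.85 ± 0.32) and the NAc (-0.59 ± 0.27), Col12a1 in the PFC (0.48 ± 0.19) and Col14a1 in the VTA (-0.65 ± 0.41). None of these was called by edgeR after adjustment. For Col11a1 in the CPu the CS group held 1 high library, that of mouse m151 at 30.8 CPM, where the other CS libraries ran from 3.81 to 6.61 CPM. Over regions limma also called 0 of 94 tested genes on the 6 lists of matrix partners (processing enzymes, other basement membrane genes, hyaluronan and link proteins, proteases, receptors and other small proteoglycans) in each of the 4 cocaine comparisons. At an unadjusted p under 0.05 there were 7 in C24 against S24, 5 in CS against SS, 3 in SC against SS and 1 in CC against CS. These counts, too, have no share of all genes beside them.

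Some members differed between 24 h and 30 d. In SS against S24, over regions, 12 of 64 members fell and 1 rose (Lamc1, 0.13 ± 0.05, a call lost without mouse m035, m073 or m185), against 17.2% and 14.7% of all genes. In CS against C24, which shares no library with the first comparison and did not enter the choice of members, 15 fell and 0 rose, against 18.9% and 17.9%. The median log2 fold change of the members was -0.08 and -0.15, beside -0.01 for all genes in both. It was negative for 42 and 55 members, and for 40 in both. Cell markers moved over the same mice. In SS against S24, 3 of 7 tested blood markers fell (list median -1.01) and 5 of 9 striatal markers rose. In CS against C24 the log2 difference was negative for 19 of 20 leptomeningeal and 12 of 12 mural markers, with 2 called lower in each list, and 5 of 16 endothelial markers fell and 3 rose. Their part was not tested. The 9 members that fell in both were Col16a1, Col19a1, Col22a1, Col28a1, Col5a1, Col5a3, Col6a2, Col9a1 and Lamb3. The share of all genes that fell in both is not given, so nothing is read from the size of this overlap.

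By role, the falls stand beside 17.2% of all genes lower in SS against S24 and 18.9% in CS against C24. Of the 10 fibril-associated collagens 4 fell in SS against S24 and 5 in CS against C24, and of the 11 fibrillar collagens 2 and 4 fell. Of the 8 basement membrane collagens limma called 0 in either comparison, with 1 at an unadjusted p under 0.05 in each. Col4a1 was called lower under other settings. In SS against S24 limma called it without the libraries that stood apart (-0.17, adjusted p 0.0474). Voom with the mouse as a block called it in SS against S24 (adjusted p 0.0495) and in CS against C24 (0.0217). In CS against C24 limma also called it without mouse m111, m171, m195 or m214. The largest falls were those of Col17a1 (-0.71 ± 0.19) and Col5a3 (-0.54 ± 0.10, adjusted p 4.1e-05) in the first and of Col9a1 (-0.70 ± 0.12, adjusted p 1.8e-05) in the second. Col5a1 fell by 0.51 ± 0.09 and by 0.44 ± 0.10 on the log2 scale. Bcan fell in CS against C24 (-0.20 ± 0.04, adjusted p 0.00017) and was not called in SS against S24. The difference between the comparisons was itself tested by limma, and 0 of 18927 genes were called, with 3 members at an unadjusted p under 0.05. For Bcan the difference was -0.14 ± 0.06 (adjusted p 0.736). That does not show the comparisons to be alike.

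**Figure D4:**
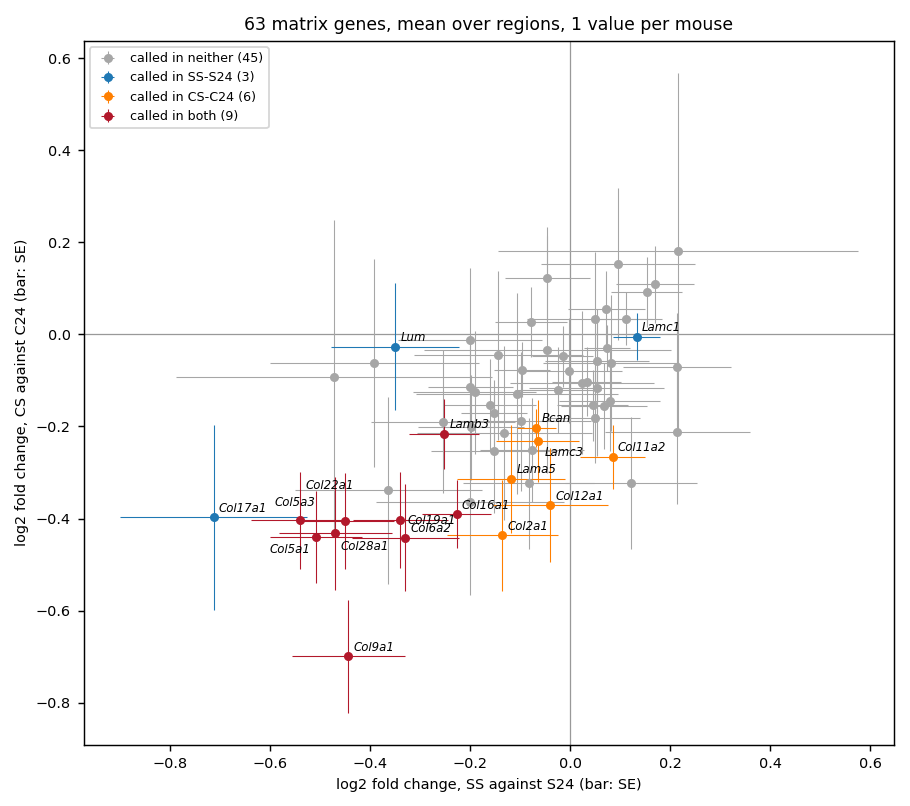
Log2 fold change over regions of SS against S24 (horizontal) and of CS against C24 (vertical) for 63 of the 64 genes, with bars of 1 SE and colours for genes called at an adjusted p under 0.05. The 9 genes called in both lie in the lower left, with Col9a1 lowest, and 45 genes were called in neither.

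The enzymes that process collagen went in both directions. Of 24 genes for the folding, hydroxylation and crosslinking of collagen, 7 rose and 2 fell in SS against S24, and 7 rose and 4 fell in CS against C24. Beside these and the lists below, 14.7% of all genes rose and 17.2% fell in SS against S24. In CS against C24 the shares were 17.9% and 18.9%. Serpinh1, the collagen chaperone of the endoplasmic reticulum, rose by 0.93 ± 0.14 and 1.01 ± 0.15 on the log2 scale. P4ha1, a catalytic subunit of prolyl 4-hydroxylase, rose by 0.72 ± 0.09 and 0.99 ± 0.10, and the lysyl hydroxylase Plod1 by 0.50 ± 0.10 and 0.43 ± 0.11. Adamts14, which removes collagen propeptides, fell by 0.60 ± 0.14 and by 0.50 ± 0.15. Among 24 matrix receptors 4 rose and 3 fell in the first and 2 and 4 in the second, with the collagen-binding Itga10 at 0.92 ± 0.12 and 0.91 ± 0.13. Sparc, a collagen-binding protein of the basement membrane, fell in both (-0.32 ± 0.08 and -0.31 ± 0.09).

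Of the remaining partner genes, 2 of 10 other basement membrane genes rose and 1 fell in SS against S24, and 1 rose and 4 fell in CS against C24. Among 12 genes for hyaluronan and link proteins 1 rose and 1 fell, then 0 and 2. Of 17 tested proteases and inhibitors 2 rose and 1 fell, then 4 and 1, with the aggrecan-cleaving Adamts1 at 0.55 ± 0.16 and 0.72 ± 0.17. Of 7 tested small proteoglycans 1 rose (Aspn) and 0 fell, then 1 and 1.

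In the BLA 17 of 64 members fell and 0 rose between S24 and SS, against 8.9% and 7.81% of all genes. The S24 libraries of that comparison also chose the members, at a level that only Col10a1 missed among the genes with such symbols (0.75 ± 0.50 in the BLA, edgeR adjusted p 0.307). Col5a1 ran from 15.5 to 22.9 CPM in S24 and from 8.01 to 16.0 CPM in SS, where mouse m143 alone reached the S24 range (-0.85 ± 0.17, adjusted p 0.00076). Col1a2 ran from 8.64 to 16.5 CPM and from 6.44 to 8.80 CPM (-0.67 ± 0.16), Col1a1 from 5.69 to 10.9 and from 3.41 to 6.37 (-0.68 ± 0.17), and Col3a1 from 1.36 to 5.45 and from 0.793 to 1.86 (-1.03 ± 0.26). In each, the highest SS libraries overlapped the lowest S24 libraries. Col4a1 ran from 67.0 to 87.7 CPM and from 32.8 to 79.4 CPM (-0.57 ± 0.15), and Bcan from 267 to 429 and from 231 to 296 (-0.38 ± 0.10).

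Markers of several cell types moved with these genes in the BLA. The summed leptomeningeal level ran from 185.3 to 285 CPM in S24 and from 126 to 150 CPM in SS, without overlap, and 6 of 17 tested genes of the list fell. Of the astrocyte list 8 of 12 fell, of the mural list 4 of 12 and of the endothelial list 3 of 16, with no gene of these lists at 0. Of the striatal neuron list 5 of 9 rose, and its summed level had medians of 614 CPM in S24 and 2057 CPM in SS. The part of these cells in the result was not tested. The count was 11 without mouse m011 or mouse m073, 27 without mouse m143 and 10 with no filter on low counts.

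In the same region CS against C24 called 3 members, all lower, against 5.09% of genes lower and 4.63% higher. They were Col5a2 (-0.75 ± 0.22), Col5a1 (14.2 to 23.5 CPM in C24 and 8.05 to 13.5 CPM in CS, -0.60 ± 0.19) and Col6a2 (36.04 to 48.2 and 21.04 to 32.2 CPM, -0.55 ± 0.17). Neither Col5a1 nor Col6a2 overlapped between the arms. Their adjusted p lay between 0.027 and 0.038, and with no filter on low counts none was called. The count was 0 without mouse m014 or m151, 1 without mouse m072 or m111 and 7 without mouse m091. Col1a1 and Col3a1, at 5.16 to 6.99 and 0.855 to 2.84 CPM in C24, had 3.51 to 6.57 and 1.52 to 2.95 CPM in CS. The leptomeningeal sum ran from 158 to 271 CPM in C24 and from 129 to 162.2 CPM in CS. Of 9 striatal markers 7 had an unadjusted p under 0.05 (median log2 1.37), and their summed level had medians of 928 CPM in C24 and 2579 CPM in CS. The choroid plexus median was -2.36, with 7 of 11 at an unadjusted p under 0.05 and the C24 library of mouse m183 apart at 1376 CPM. What these cells contributed was not tested.

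In the CPu, collagen XVII fell in both comparisons. SS against S24 called 5 members lower and 3 higher, against 7.74% and 9.19% of genes, and CS against C24 called 5 lower and 1 higher, against 11% and 11.7%.

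Col17a1 ran in the CPu from 1.97 to 3.998 CPM in S24 and from 1.54 to 2.57 CPM in SS (-0.74 ± 0.16). It ran from 2.94 to 4.87 CPM in C24 and from 1.48 to 2.41 CPM in CS, without overlap (-1.05 ± 0.17, adjusted p 1.4e-05). Col6a2 fell too (-0.32 ± 0.09 and -0.51 ± 0.10). Vcan rose in both. It ran from 29.1 to 45.9 CPM in S24 and from 29.4 to 57.1 CPM in SS (0.35 ± 0.11), and from 34.9 to 53.2 CPM in C24 and from 44.7 to 64.04 CPM in CS (0.39 ± 0.12). The ranges overlapped, and the first of these calls was lost with no filter (adjusted p 0.0602) and without mouse m052, m073, m122, m162 or m182. Ncan (0.25 ± 0.07) and Dcn (0.42 ± 0.14) rose in SS against S24. The call of Dcn was lost without the libraries that stood apart (adjusted p 0.0566) and without mouse m011, m073, m143, m191, m201 or m205. Col11a1 was not called in CS against C24 (0.0082, adjusted p 0.99), and without CS mouse m151 it was lower (-0.80, adjusted p 0.00571), with C24 libraries at 5.65 to 16.4 CPM. Bcan fell in CS against C24 (-0.20 ± 0.07), a call lost with no filter (adjusted p 0.0525) and without mouse m055, m072, m151 or m171. The count of called members in SS against S24 was 4 without mouse m073 and 5 without mouse m052, m162, m201 or m205. Of 15 tested leptomeningeal markers in the CPu 0 were called by edgeR in SS against S24 (1 at an unadjusted p under 0.05) and 1 fell in CS against C24. Of 12 oligodendrocyte markers 5 fell in CS against C24. For 8 glutamatergic forebrain markers the median log2 difference was -1.09 in SS against S24, with 0 at an unadjusted p under 0.05, while the summed level had medians of 2905 CPM in S24 and 2836 CPM in SS. The part of these cells was not tested.

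**Figure D5:**
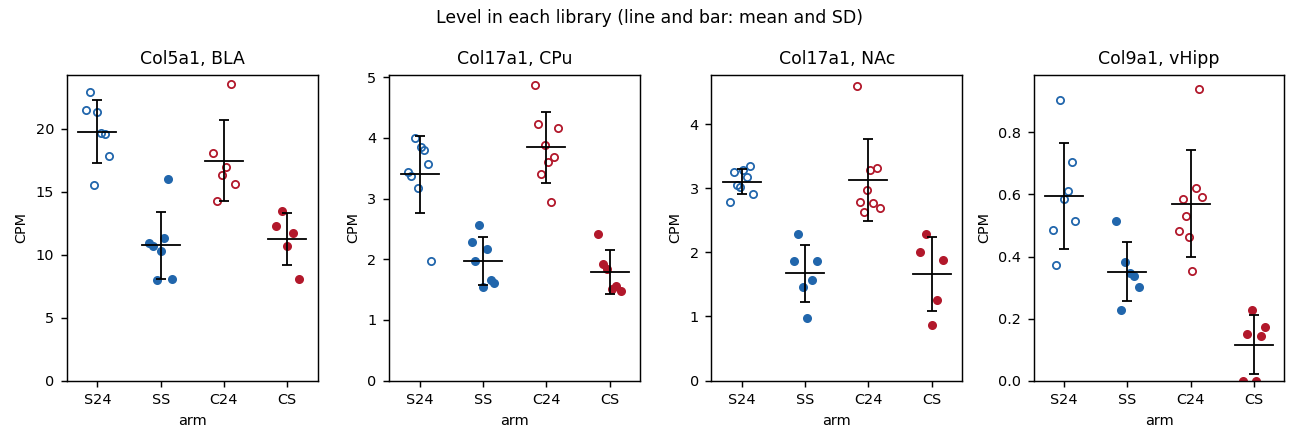
CPM of Col5a1 in the BLA, Col17a1 in the CPu and the NAc and Col9a1 in the vHipp in each library of S24, SS, C24 and CS, with a line at the mean and a bar of 1 SD. Open points are 24 h and filled points are 30 d; the 30 d means are lower in every panel, and single libraries such as SS mouse m143 for Col5a1 reach the 24 h range.

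Collagen XVII fell in the NAc too. SS against S24 called 2 members there, both lower, among them Col17a1 (-0.87 ± 0.21), against 1.88% of genes lower and 1.91% higher. Col17a1 ran from 2.79 to 3.34 CPM in S24 and from 0.978 to 2.29 CPM in SS, without overlap. CS against C24 called 4 lower, against 4.47% lower and 4.36% higher. Among them were Col17a1 (2.62 to 4.59 and 0.864 to 2.29 CPM, without overlap, -0.88 ± 0.22), Lama5 (15.3 to 23.8 and 6.97 to 14.6 CPM, without overlap, -0.67 ± 0.16) and Col6a2 (-0.62 ± 0.19). Col6a2 lost its call without mouse m091, m111 or m151. Of 19 tested leptomeningeal markers 2 fell in the first and 1 in the second. Col9a1 did not pass the count filter in the CPu and the NAc, so 63 members were tested there.

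In the PFC, SS against S24 called 3 lower and 1 higher, against 7.36% and 6.92% of genes. Col28a1, a collagen with von Willebrand factor A domains, ran from 0.708 to 2.21 CPM in S24 and from 0.699 to 0.978 CPM in SS (-1.03 ± 0.22, adjusted p 0.0011). Col22a1 (-0.81 ± 0.22) and Lamb3 (-0.49 ± 0.17) were lower and Lamc1 higher (0.30 ± 0.10); Lamb3 had an adjusted p of 0.0513 with DESeq2 size factors and 0.0935 with no filter. CS against C24 called 4 lower, Col9a1 (-1.28 ± 0.26), Col17a1 (-1.07 ± 0.27), Lama5 (-0.48 ± 0.14) and Col12a1 (-0.64 ± 0.19), against 5.09% and 6.22% of genes. Col9a1 ran from 0.981 to 1.74 CPM in C24 and from 0.182 to 0.888 CPM in CS, without overlap. Lama5 lost its call without mouse m151, and Col12a1 without mouse m014 or m091. In this region 3 of 6 tested blood markers fell in SS against S24. Of 12 oligodendrocyte markers all were positive there (median log2 1.03), with summed medians of 2670 CPM in S24 and 6369 CPM in SS and 1 called. The striatal median was 0.80 in SS against S24 and 0.83 in CS against C24, with 5 and 6 of 9 at an unadjusted p under 0.05. In CS against C24, 3 of 16 endothelial markers fell. The part of these cells was not tested.

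In the vHipp, edgeR called 0 members in SS against S24, against 0.944% of genes lower and 1.78% higher. DESeq2 called 3 (Col1a2, Col3a1 and Lamc1, all higher), and 17 had an unadjusted p under 0.05 in edgeR, which became 4 without the libraries that stood apart. The leptomeningeal list moved with them, with 15 of 20 at an unadjusted p under 0.05 and a median of 1.2, which became 0 and 0.335 without those libraries. The choroid plexus median was -5.19 and became -0.72. Without those libraries, a setting chosen after seeing the data, DESeq2 called 1 member, Col27a1 (0.51, adjusted p 0.0273), and Col1a2, Col3a1 and Lamc1 were not called. CS against C24 called 5 lower, Col9a1, Lamb3 (-0.72 ± 0.17), Bcan (-0.53 ± 0.13), Col22a1 (-1.02 ± 0.28) and Col11a2 (-0.69 ± 0.20), against 2.07% and 2.51% of genes. Col11a2 lost its call without the libraries that stood apart (adjusted p 0.0712) and with no filter (0.0736). Col9a1, a chain of the fibril-associated collagen IX, ran from 0.352 to 0.940 CPM in C24 and from 0 to 0.229 CPM in CS, without overlap (-2.14 ± 0.37, adjusted p 0.00035). This is a gene of few reads, with 8 to 22 counts in each C24 library and 0 to 5 in each CS library, 2 of which had none. In S24 it ran from 0.371 to 0.904 CPM and in SS from 0.229 to 0.514 CPM. Bcan ran from 218 to 479 CPM in C24 and from 184.6 to 271 CPM in CS, with overlap. Of 16 endothelial markers 3 fell in CS against C24 and of 12 microglial markers 2. All 12 choroid plexus markers had an unadjusted p under 0.05 (median log2 5.83), with a summed level of up to 21059 CPM in the CS library of mouse m055, which stood apart. Without such libraries the choroid plexus median was 0.201, and 5 members were called lower, Col11a2 not among them. The log2 difference was then negative for 54 of 64 members, from 43. The leptomeningeal median went from -0.177 to -0.631. Of that list 18 of 20 were then negative and 5 had an unadjusted p under 0.05, from 15 and 0. The part of these cells was not tested.

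In the VTA, SS against S24 called 1 member, Col27a1, a fibrillar collagen of cartilage and brain, which rose from 5.55 to 9.29 CPM in S24 to 9.38 to 11.3 CPM in SS, without overlap (0.41 ± 0.10, adjusted p 0.018), against 1.45% of genes higher and 1.06% lower. CS against C24 called 0 by edgeR and 0 by DESeq2, where edgeR called 1.78% of all genes lower and 2.22% higher. At an unadjusted p under 0.05 edgeR had 13 members, with no share of all genes at that p beside them. The leptomeningeal markers were negative in 20 of 20 (median -1.47) and the blood markers in 7 of 7 (median -2.96). The C24 library of mouse m175 stood apart in both, at 908 and 2171 CPM, and without it 7 members had an unadjusted p under 0.05 and the list medians were -0.172 and -1.48. Col27a1 had the smallest p there too (0.34 ± 0.12, adjusted p 0.092), with 6.52 to 9.13 CPM in C24 and 9.47, 9.76 and 10.5 CPM in the 3 CS libraries, without overlap. The small number of CS libraries in the VTA limits the precision.

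Whether the SS against S24 difference itself differed between the BLA and the CPu was tested with limma voom and the mouse as a block. Among the members only Col4a1 was called, with a difference of -0.64 ± 0.17 on the log2 scale (adjusted p 0.0293), the BLA being the region where it fell. Of 18927 genes 243 were called higher and 86 lower in that test. The difference between CS against C24 and SS against S24 was tested in each region with edgeR, and 0 genes were called in any of the 6. Members at an unadjusted p under 0.05 numbered 26 in the vHipp and at most 6 elsewhere. No share of all genes at that p stands beside these counts. The vHipp fit held the libraries of mice m035, m055 and m182, which stood apart, and the test was not repeated without them. Nothing is therefore read from the vHipp count. In the vHipp Bcan had -0.75 ± 0.19 (adjusted p 0.172).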

How the data were processed

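Gene counts of 230 libraries were deposited by the authors as a table of raw counts per gene, made with HTSeq on mm10 per the submitters' processing notes, which also name limma. The aligner and strand setting are not given in the sources used here. Per the labels' protocols, libraries were ribosomal RNA depleted, although the molecule label reads polyA. Totals ran from 11866570 to 42135683 counts, and its mitochondrial genes were all at 0. Symbols for 42462 of 43346 genes (98%) came from GENCODE M21. Replicates were separate mice.

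The members, lists and rules were chosen with earlier results of these data known. Described throughout were 24 set genes, of which 1 is not reported here, the 3 highest and 2 lowest called members of each region and, for each arm comparison, up to 5 called members or the one with the smallest p.

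Regions were compared in SS libraries, and arms within regions over all libraries of a region, with edgeR 4.0.16 in R 4.3.3 (quasi-likelihood, TMM, minimum count 10 and total 15). Arms over regions used limma 3.58.1 on 1 mean of centred log2 CPM per mouse. P-values were adjusted by Benjamini-Hochberg over all genes, with a threshold of 0.05. Scripts were tested on simulated data. Alternatives were DESeq2 1.42.0, other size factors, no count filter, other libraries, pseudocounts of 1 and 0.1 CPM, left-out libraries and the mouse as a block. Libraries of 1 mouse pair by animal. The median correlation of their deviations was 0.067 over 486 pairs, against -0.00958 over 3228 pairs of different mice of an arm.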

Additional observations from a re-analysis of the deposited data

Results flagged for a closer look

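Among 152 groups of 4 to 10 libraries whose values are described, 31 held a library far from the rest (Dixon's test at the 95% level, which chance flags in about 1 in 20 groups). The vHipp library of SS mouse m035 had Col1a1 at 54.7 CPM (next 11.9), Col3a1 at 38.9 CPM (next 5.42), Bgn at 96.3 CPM (next 24.8), Lum at 19.8 CPM (next 6.08) and Tnc at 27.8 CPM (next 15.3). The vHipp library of S24 mouse m182 had Col8a1 at 79.3, Col8a2 at 74.8 and Col9a3 at 159 CPM. Both stood apart by their markers. Other libraries of mouse m035 had high Lamb3 in the NAc (9.92 CPM) and high Col6a1 (5.86 CPM) and Tnc (3.17 CPM) in the VTA.

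The CPu library of SS mouse m011 was low in Tnr (83.7 CPM), Vcan (29.4 CPM), Col25a1 (32.5 CPM) and Fn1 (30.1 CPM), and that of S24 mouse m182 in Vcan (29.1 CPM). The BLA library of SS mouse m143 was high in Col4a1 (79.4 CPM, next 51.0) and Col5a1 (16.0 CPM). It had the lowest striatal neuron marker sum of its group, 553 CPM against 1150 to 3226 CPM, and its part was not tested. The vHipp library of SS mouse m162 was high in Col5a1 (83.1 CPM, next 33.2) and Col24a1 (3.53 CPM).

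For Fn1, C24 mouse m203 was high in the CPu (127 CPM), NAc (128 CPM) and vHipp (289 CPM), C24 mouse m175 in the VTA (297 CPM, a library that stood apart) and S24 mouse m193 in the VTA (84.6 CPM). The rest were Col17a1 in the CPu of S24 mouse m225 (1.97 CPM, low) and in the NAc of C24 mouse m171 (4.59 CPM), Col9a1 in the vHipp of C24 mouse m214 (0.940 CPM), Dcn in the BLA of CS mouse m091 (13.6 CPM) and in the VTA of SS mouse m143 (18.9 CPM), and Col11a1 (30.8 CPM, next 6.61) in the CPu of CS mouse m151. The difference between 30 d and 24 h saline mice differed between the BLA and the CPu for Col4a1, by -0.64 on the log2 scale.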

How the results depend on the processing

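With all libraries outside S24 in place of SS alone, the members called lower numbered 17 in the BLA (from 9), 38 in the NAc (from 20), 27 in the PFC (from 15) and 17 in the vHipp (from 7). The share of all genes called lower rose too, to 31.6%, 35.7%, 37.6% and 35.3% in that order, from 12.1%, 21.5%, 19.8% and 22%. With no filter on low counts, SS against S24 called 10 members in the BLA and 5 in the CPu, and CS against C24 called 0 in the BLA. DESeq2 called 3 in the vHipp in SS against S24, and 1 without the libraries that stood apart. Voom fits, which take libraries and not mice as units, called 1 member (Fn1) in C24 against S24 over regions. They did so with the replicate block of the mouse and with no block. Fitted with that block, the SS regions gave counts within 1.5 times those reported, such as 33 higher and 7 lower in the vHipp, and among the always-described genes the call was lost for Lamb1 in the BLA (0.22), Col25a1 in the NAc (-0.27) and Bgn in the NAc (-0.54).

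Leaving out 1 library at a time gave 11 to 27 calls for SS against S24 in the BLA and 4 to 10 in the CPu. For CS against C24 it gave 0 to 7 in the BLA, 4 to 8 in the CPu, 2 to 4 in the NAc, 3 to 5 in the PFC and 0 in the VTA. Leaving out 1 mouse gave 11 to 14 and 13 to 18 over regions. The correlation of Bcan with its marker list in the CPu was 0.297 (adjusted p 0.0741) without the libraries that stood apart, from 0.32. Lama4 in the vHipp turned from higher to -0.0571 with all libraries outside S24 and -0.0788 without the libraries that stood apart. Col11a1 in the CPu in CS against C24 ran from -0.80 to 0.16 over left-out libraries, the lowest without mouse m151. No other named call turned its direction. The cause of these changes was not tested. Alternatives on libraries that stood apart on single mice over regions and on single libraries of groups over 5, and the tests of differences between comparisons, were chosen after seeing the data. Members below about 1 CPM, such as Col9a1, rest on few reads.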
